A study of Mus musculus with 6 samples.

Results

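The 33 genes described here encode proteins of the DNA damage checkpoint and of DNA repair, and all 33 were found by gene symbol among the 18288 genes of the deposited table. They were divided by role into 5 checkpoint kinases, 3 checkpoint mediators, 16 genes of homologous recombination, 5 Fanconi genes, 1 mismatch repair gene and 3 genes of strand break and postreplication repair. RNA was sequenced from mouse CD8+ T cells, the cytotoxic lymphocytes, after activation in culture and collection on day 2. There were 3 biological replicates labelled Nae1T-KO and 3 labelled Nae1WT. Nae1 encodes a subunit of the enzyme that activates NEDD8, a ubiquitin-like protein that is attached to cullins and other targets, and the study asks what neddylation does in effector CD8+ T cells. The sources used here do not give the driver of the deletion, the strain, the age of the mice or the activating agents. No label ties a replicate to its own mouse, and the spread behind the p-values may be partly technical.

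Dividing cells check their DNA before and during replication. The kinases ATM and ATR sense broken ends and stalled forks and pass the signal to CHK2 and CHK1, which hold the cell cycle while repair proceeds. Homologous recombination copies the sister chromatid to mend breaks, the Fanconi proteins unlock crosslinked strands, and mismatch repair corrects copying errors. T cells divide very fast after activation, and many of these genes are transcribed mainly in cells that are preparing for or undergoing S phase.

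Values are normalized counts, which are reads per gene divided by a size factor for the library. Libraries held 15628252 to 25444653 reads assigned to genes. As a check of the labels, Nae1 had 338 to 390.3 normalized counts in Nae1T-KO and 1601 to 1882 in Nae1WT. Of 8 CD8 T cell markers 7 were in the table, and they summed to 77399 to 101508 normalized counts in Nae1T-KO and 87735 to 99410.4 in Nae1WT. Markers of myeloid and dendritic cells were low but higher in Nae1T-KO, where the 6 of 8 in the table summed to 69.3 to 127 against 19.9 to 38.1. Erythroid markers were highest in Nae1T-KO replicate 2, at 2042 against 142 to 629 in the other 5 libraries. B cell markers were also highest there, at 489 against 199 to 340.3. The part of these cells in the results below was not tested. Xist and Y-linked genes showed that Nae1T-KO replicates 1 and 2 and Nae1WT replicate 3 came from female cells and the other 3 libraries from male cells.

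Promoter sequences are shown because the E2F motif, the element through which E2F factors act on S phase genes, marked many of these genes whether or not they differed between the groups. RefSeq promoter windows of GRCm38.p6, from 250 bases before to 50 bases after a transcription start, were matched by symbol for 27 of the 33 genes. The strings searched were TTCCCGC with its reverse complement GCGGGAA, the string TTGGCGC with its reverse complement GCGCCAA, the string TTGCCGC with its reverse complement GCGGCAA, and the string TTCGCGC with its reverse complement GCGCGAA. At least 1 of them was present in 15 of the 27 (55.6%), against 19.1% of 10057 tested genes with a window and 10.9% of all 27025 genes with a window. Among genes that were lower in Nae1T-KO, described below, 5 of 7 with a window held the motif, and among the others 10 of 20 did. The stretches below are 30 bases long, read 5′ to 3′ on the gene's strand, with the motif in capitals. The first 5 belong to genes lower in Nae1T-KO, and the last 3 to genes that did not pass the test.
Atm: tagagccggaaGCGGGAAggcgtgcgtaca
Chek1: cagcatgacgcaagcaggttttgGCGGGAA
Brca2: tttaggccacaGCGGGAAacagacacacac
Rad51ap1: tctggttttcgGCGGGAAttgaaaccgcca
Fancb: ccggggtagagGCGGGAAtaagtgctctgc
Chek2: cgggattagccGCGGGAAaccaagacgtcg
Fanci: cgtggagtagaGCGGGAAttttggaaggat
Bard1: cgccgctcagtTTCCCGCtcaggaagtttg
The stretches lie at chr9:53536638-53536667 (minus strand) for Atm, chr9:36726609-36726638 (minus) for Chek1, chr5:150522442-150522471 (plus) for Brca2, chr6:126939557-126939586 (minus) for Rad51ap1 and chrX:164980409-164980438 (plus) for Fancb. Those of the other 3 lie at chr5:110839820-110839849 (plus) for Chek2, chr7:79392345-79392374 (plus) for Fanci and chr1:71103162-71103191 (minus) for Bard1. The same 7 letters, GCGGGAA, stand in all 5 of the lower genes shown and in Chek2 and Fanci, and Bard1 holds their reverse complement. GCGGGAA was also present in windows of Mdc1 and Rad51c, and its reverse complement in Msh6, which did not pass the test. Topbp1, Brca1, Blm and Brip1, also not past the test, matched only by the other strings. The motif began 16, 44, 13 and 19 bases into the transcript for Atm, Chek1, Rad51ap1 and Fanci. For Brca2, Fancb, Chek2 and Bard1 the motif began upstream, at -168, -172, -152 and -208 from the transcription start. In none of the stretches did the E2F motif share bases with the other motifs searched, which were CCAAT (or ATTGG) and TTTGAA (or TTCAAA), a cell cycle element. CCAAT was present in 15 of the 27 genes and in 43.0% of tested genes with a window. TTTGAA was present in 3 of the 27 genes and in 15.0% of tested genes with a window. For each motif a gene counted if any of its windows matched, so genes with more windows could match more easily. A match describes letters in these windows and not a bound site.

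Transcripts of the 33 genes were either lower in Nae1T-KO or did not pass the test. Of the 33 genes, 8 were lower, 0 higher and 25 not past the threshold (limma, adjusted p under 0.05 over 13819 tested genes). At an unadjusted p under 0.05, 15 of the 33 had lower values in Nae1T-KO, the 8 included, and 1, Wee1, had higher ones, where 14.7% of all tested genes were lower and 14.4% higher at that p. edgeR and DESeq2 on reads recovered from the table also called 0 of the 33 higher, where they called 942 and 1035 of all tested genes higher. By limma at an adjusted p under 0.05, 6.18% of all tested genes were lower and 6.53% higher. With scaling to total counts the lower share was 4.5% of all tested genes, as the split of all calls went from 854 lower and 903 higher to 622 lower and 1176 higher, and 6 of the 33 genes were then lower. The groups did not overlap, with every Nae1T-KO library below every Nae1WT library, for 15 of the 33 genes, where 17.0% of tested genes did so. The reverse held for 2 of the 33, where 16.7% of tested genes did so. The median log2 fold change of the 33 genes was -0.14, against -0.01 over all tested genes, and no change among them exceeded -0.59 in size. These are bulk libraries, in which fewer cells that express a gene and less RNA per cell cannot be told apart.

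**Figure D1:**
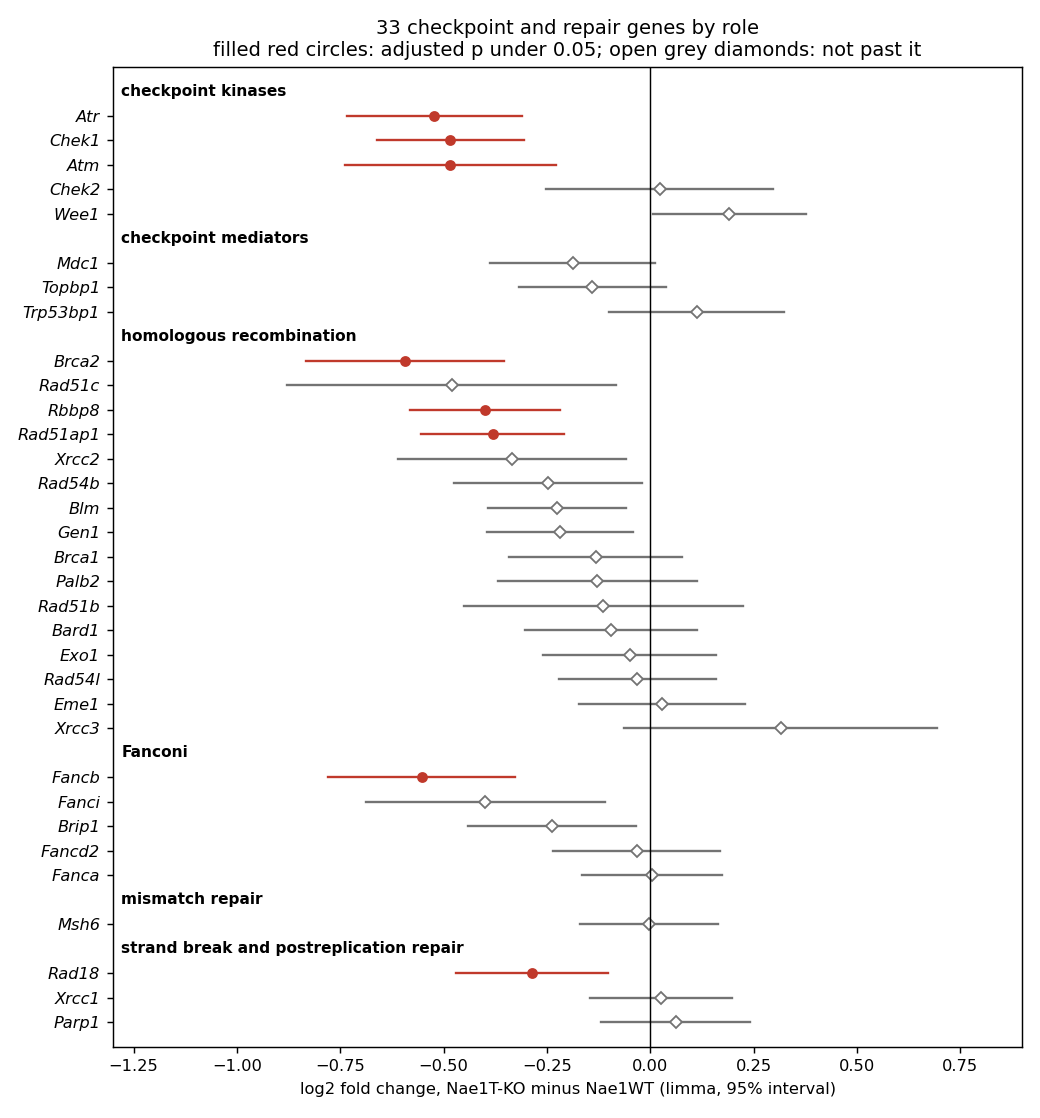
Log2 fold change of each of the 33 genes between Nae1T-KO and Nae1WT (x axis, limma) with its 95% interval, grouped by role. The 8 genes in filled red circles passed the test and all lie below 0, from -0.59 for Brca2 to -0.29 for Rad18.

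Transcripts of the apical kinases and of CHK1 were lower, while those of CHK2 and WEE1 did not pass the test. Atr, the kinase that responds to stalled replication forks, had 1338, 1466 and 1132 normalized counts in Nae1T-KO and 1968, 1888 and 1770.1 in Nae1WT. Every Nae1T-KO library was below every Nae1WT library, and Nae1T-KO replicate 3 was the lowest. The log2 fold change was -0.52 ± 0.10 (SE, limma adjusted p = 0.00700), a level 69.6% of that in Nae1WT, and the call held in all 19 alternatives. Atr spans chromosome 9 from 95857597 to 95951781 in mm10.

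Chek1, the kinase that ATR activates, had 1075, 1052 and 1250.1 normalized counts in Nae1T-KO. In Nae1WT it had 1561, 1558 and 1594, a spread of 1571 ± 20.4 (SD, n = 3) that was far narrower than the gap to the nearest Nae1T-KO library. This was a log2 fold change of -0.48 ± 0.08 (SE, limma adjusted p = 0.00443). Unlike Atr, Chek1 was highest in Nae1T-KO replicate 3 among the Nae1T-KO libraries. Chek1 lies on chromosome 9 from 36708482 to 36727065.

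Atm, the kinase that responds to broken ends, had 1883, 2331 and 1735 normalized counts in Nae1T-KO while the Nae1WT libraries had 3091, 2502 and 2694. The groups did not overlap, but Nae1T-KO replicate 2 and Nae1WT replicate 2 were close. The log2 fold change was -0.48 ± 0.11 (SE, limma adjusted p = 0.0235). The call rested on several libraries. Leaving out Nae1T-KO replicate 1 or 3 gave an adjusted p of 0.0672 or 0.0527, and leaving out Nae1WT replicate 1 or 3 gave 0.0669 or 0.0577. Over the 19 alternatives, of which 13 kept the call, it was 0.00138 to 0.0672.

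Chek2, the partner kinase of ATM, had 233, 219 and 241 normalized counts in Nae1T-KO and 260.3, 216 and 208 in Nae1WT, with groups that overlapped. The change of 0.02 (log2) had bounds of -0.25 and 0.30 at 95% (limma, adjusted p = 0.929), which hold changes in either direction. Wee1, the kinase that restrains CDK1 before mitosis, had 672, 684 and 636 in Nae1T-KO but 610.2, 545 and 592 in Nae1WT. The groups did not overlap, but the log2 fold change of 0.19 (95% interval 0.01 to 0.38) did not pass the test (limma, adjusted p = 0.161).

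None of the 3 checkpoint mediators passed the test. Topbp1, the activator of ATR, had 5281 to 6163 normalized counts in Nae1T-KO and 5926 to 6805 in Nae1WT, with a log2 fold change of -0.14 (95% interval -0.32 to 0.04). Mdc1, the scaffold that binds phosphorylated histone H2AX, had -0.19 (-0.39 to 0.01). Trp53bp1, whose product protects broken ends from resection, had 0.11 (-0.10 to 0.32). Each interval includes 0, and the groups overlapped for each gene.

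**Figure D2:**
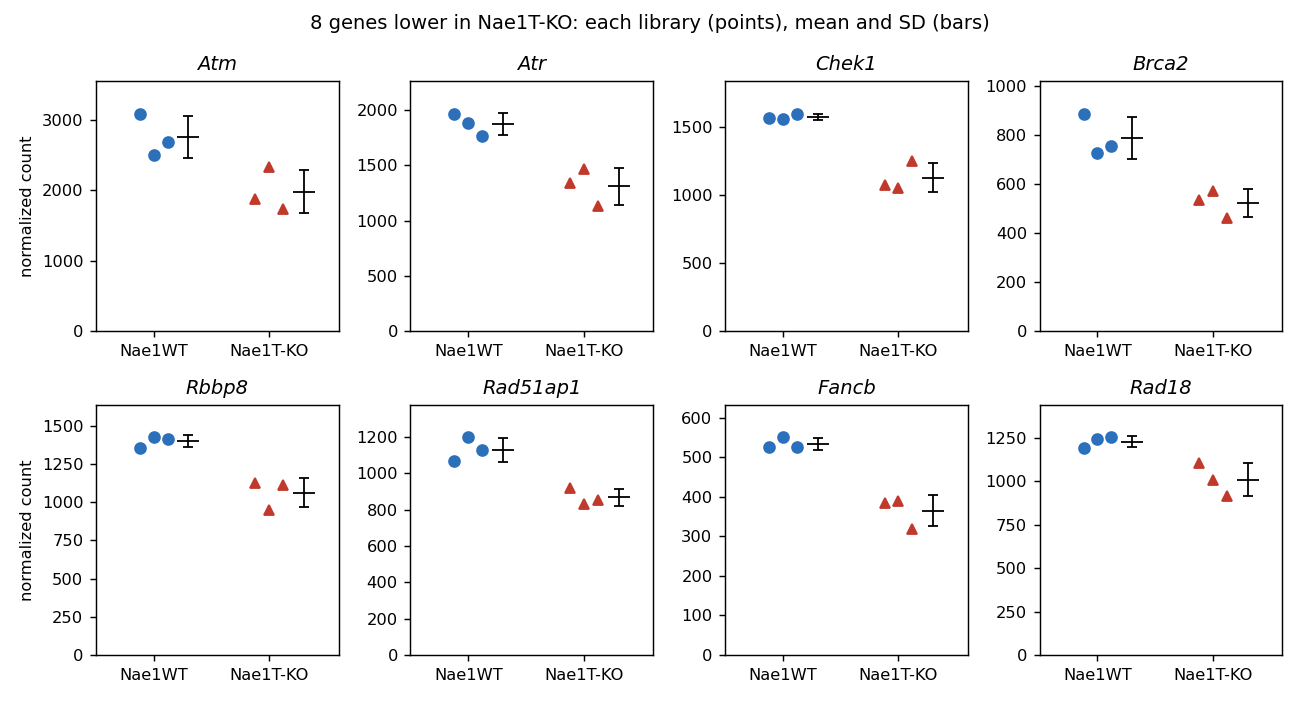
Normalized counts (y axis, from 0) of the 8 genes that passed the test, with 1 point per library, Nae1WT in blue circles and Nae1T-KO in red triangles, and bars for the mean and SD of 3 libraries. In each panel all Nae1T-KO points lie below all Nae1WT points, with the smallest gap for Rad18 (1107 against 1191).

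Among the 16 homologous recombination genes 3 were lower, 0 higher and 13 not past the threshold. Over all tested genes 6.18% were lower and 6.53% higher. Of the 16 genes 14 had a log2 fold change below 0 (51.0% of all tested genes did). The 3 lower genes act at separate steps. Brca2, the partner of PALB2 in strand exchange, had 536, 570.2 and 461 normalized counts in Nae1T-KO and 887, 725 and 754 in Nae1WT. No Nae1T-KO library reached the lowest Nae1WT library. The log2 fold change of -0.59 ± 0.11 (SE, limma adjusted p = 0.00682) was the largest among the 33 genes, a level 66.3% of that in Nae1WT. Brca2 spans chromosome 5 from 150522630 to 150570329.

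Rbbp8 encodes CtIP, which starts the resection of broken ends. It had 1128, 953 and 1112 normalized counts in Nae1T-KO and 1356, 1426 and 1418 in Nae1WT. The log2 fold change was -0.40 ± 0.08 (SE, limma adjusted p = 0.0117). Rad51ap1, which stimulates strand invasion, had 919, 833 and 852 in Nae1T-KO but 1067, 1199 and 1128 in Nae1WT. Rad51ap1 thus had a log2 fold change of -0.38 ± 0.08 (SE, limma adjusted p = 0.0117). Its call ended without Nae1WT replicate 2 (adjusted p = 0.0590, in a range of 0.00149 to 0.120 over the alternatives). For both genes every Nae1T-KO library lay below every Nae1WT library.

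BRCA1, its ligase partner and the bridge to BRCA2 did not pass the test. Brca1 had 1455, 1326 and 1133 normalized counts in Nae1T-KO and 1510.3, 1373 and 1389 in Nae1WT, with groups that overlapped. Its log2 fold change was -0.13 (95% interval -0.34 to 0.08), that of Bard1, its partner in the ubiquitin ligase, was -0.10 (-0.30 to 0.11), and that of Palb2, which bridges BRCA1 and BRCA2, was -0.13 (-0.37 to 0.11). None of these intervals reaches the log2 fold change of Brca2. The 95% interval of Brca2 was -0.83 to -0.35, which overlaps that of Palb2 but not those of Brca1 and Bard1. The difference between Brca2 and its partners was not tested.

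None of Rad51b, Rad51c, Xrcc2 and Xrcc3, whose products help build the recombination filament, passed the test. Rad51c had 64.9, 56.4 and 72.7 normalized counts in Nae1T-KO and 94.5, 95.1 and 81.5 in Nae1WT. The groups did not overlap, but at this low level the log2 fold change of -0.48 had a wide interval of -0.88 to -0.08 and did not pass (limma, adjusted p = 0.106). Xrcc2 had 390.3, 359.6 and 285 in Nae1T-KO while Nae1WT had 410.1, 424 and 461, and its log2 fold change was -0.33 (limma, adjusted p = 0.104). It passed with sex in the fit (adjusted p = 0.0324, the lowest of 0.0324 to 0.284 over the alternatives). Xrcc3 lay the other way, with 81.6, 95.2 and 88.9 in Nae1T-KO but 63.8, 73.2 and 76.1 in Nae1WT, no overlap and a log2 fold change of 0.31 that did not pass (95% interval -0.06 to 0.69, limma adjusted p = 0.251). Rad51b overlapped between the groups (-0.11, 95% interval -0.45 to 0.22).

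None of the helicase, motor and nuclease genes of recombination passed the test. Blm, the Bloom helicase, had 1462 to 1691 normalized counts in Nae1T-KO and 1799.8 to 1936 in Nae1WT. Its log2 fold change was -0.23 (limma, adjusted p = 0.0760). Gen1, which cuts Holliday junctions, had 710.2 to 798 against 837 to 905 (-0.22, adjusted p = 0.0967). The groups were separate for both, and also for the motor gene Rad54b (-0.25, adjusted p = 0.139). Exonic bases of Rad54b overlap other genes for 35.9% of their length, so its reads may be shared with them. The log2 fold changes of Rad54l (-0.03), the exonuclease gene Exo1 (-0.05) and Eme1 (0.03), a subunit of the MUS81 nuclease, were near 0, and their groups overlapped.

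Of the 5 Fanconi genes 1 was lower and 4 did not pass, where 6.18% of all tested genes were lower. Fancb, a subunit of the core complex that attaches ubiquitin to FANCD2 and FANCI, had 385, 389.5 and 319 normalized counts in Nae1T-KO and 526, 549.9 and 525 in Nae1WT. The Nae1WT libraries lay close together, and the highest Nae1T-KO library was far below the lowest of them. The log2 fold change was -0.55 ± 0.10 (SE, limma adjusted p = 0.00717), a level 68.1% of that in Nae1WT. Fancb is on the X chromosome from 164980592 to 164997272. Its log2 difference was -0.44 between female libraries and -0.75 between male ones.

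Fanci had 619.6, 554 and 440.3 normalized counts in Nae1T-KO, below the 762, 623 and 731 of Nae1WT. Nae1T-KO replicate 1 came close to Nae1WT replicate 2, but the groups did not overlap. At -0.40 its log2 fold change did not pass (limma, adjusted p = 0.0709). It did pass without Nae1T-KO replicate 1 (adjusted p = 0.0419), with sex in the fit (0.0289) and by DESeq2 on recovered reads (0.0371), and the range over the alternatives was 0.0289 to 0.371. Exonic bases of Fanci overlap Polg on the opposite strand for 16.0% of their length. Such overlap with genes on the opposite strand was also 15.4% for Rad54l, 15.0% for Trp53bp1, 10.7% for Eme1 and 10.5% for Fanca.

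Fancd2, the other target of the core complex, had 1197, 1123 and 1037 normalized counts in Nae1T-KO and 1239, 1021 and 1180.1 in Nae1WT. The groups overlapped, and the log2 fold change was -0.03 (95% interval -0.24 to 0.17). Brip1, the helicase FANCJ that binds BRCA1, had 623, 666 and 592 against 818, 699 and 703, with no overlap, and a log2 fold change of -0.24 that did not pass (limma, adjusted p = 0.117). Fanca, another core subunit, had 742, 801 and 728 in Nae1T-KO, beside 754, 755 and 754 in Nae1WT. The log2 fold change was 0.00 (95% interval -0.16 to 0.17). Within the core complex, then, Fancb was lower while Fanca was not past the threshold, and the intervals of these log2 fold changes did not overlap. The difference itself was not tested.

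Msh6, which takes part in the recognition of mismatched bases, had 2619, 2763 and 2671 normalized counts in Nae1T-KO and 2861, 2439 and 2785 in Nae1WT. The groups overlapped, and the log2 fold change was 0.00 (95% interval -0.17 to 0.16, limma adjusted p = 0.987). Among the genes of strand break and postreplication repair, Parp1, which senses broken strands, had 0.06 (95% interval -0.12 to 0.24) and Xrcc1, the scaffold it recruits, had 0.03 (-0.15 to 0.20). Rad18, the ubiquitin ligase that marks PCNA at stalled forks, had 1107, 1007 and 916 in Nae1T-KO but 1191, 1242 and 1254 in Nae1WT. At -0.29 ± 0.08 (SE) its log2 fold change was just past the threshold (limma, adjusted p = 0.0475). Only 9 of 19 alternatives kept this call, and leaving out any library other than Nae1T-KO replicate 1 ended it (adjusted p 0.0755 to 0.143 over these 5, and 0.0322 to 0.240 over all alternatives).

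Levels per length ordered the 33 genes over a wide range. The length was that of all annotated exons of a gene joined, such as 23629 bases for Atr. This order thus depends on the annotation as well as on the level. In Nae1WT the highest values per kb of annotated exon were those of Parp1 at 749 ± 48.3 (SD, n = 3), Msh6 at 620.1 ± 51.8 (SD, n = 3) and Topbp1 at 568 ± 39.2 (SD, n = 3) normalized counts per kb. Msh6 and Topbp1 overlapped within their SDs, and Parp1 lay above both. Chek1 followed at 339 ± 4.39 (SD, n = 3), and the lowest were Rad51b at 37.2, Xrcc3 at 25.8 and Rad51c at 20.6. The 8 lower genes were spread along this order from rank 4 for Chek1 to rank 30 for Brca2. The rank correlation of level (mean log2 normalized count) with log2 fold change was -0.03 over the 33 genes. That of exon length with log2 fold change was -0.25 over the 33 genes and 0.02 over 12830 tested genes with a length. Both are across genes, which share the same libraries.

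**Figure D3:**
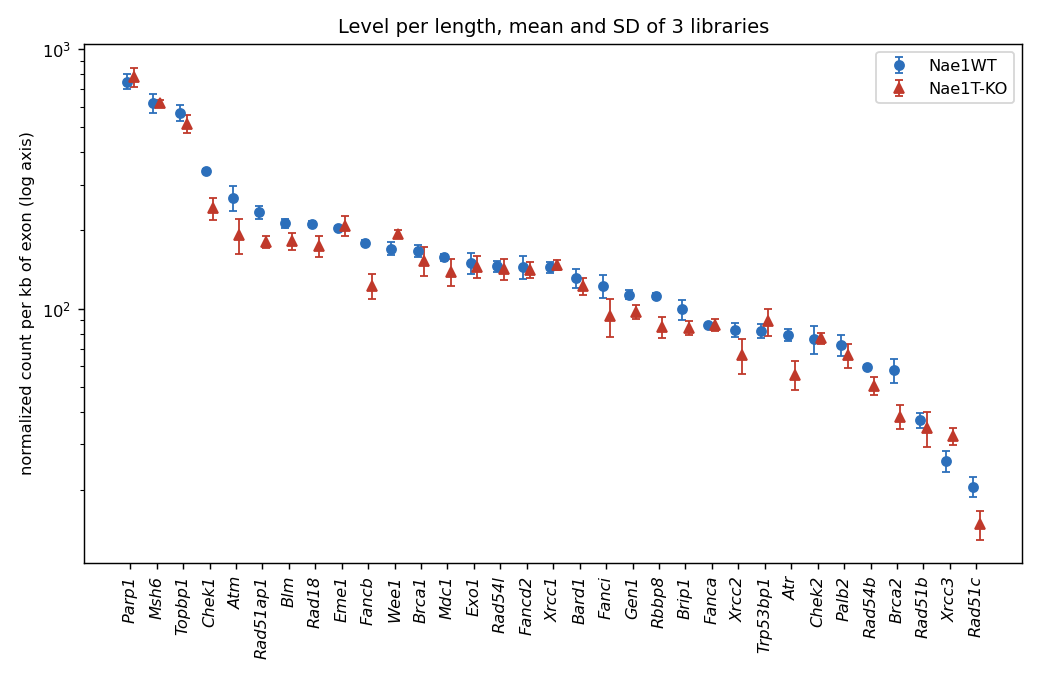
Normalized count per kb of exon (y axis, log scale) for the 33 genes, ordered by level in Nae1WT, with the mean and SD of 3 libraries per group. Parp1, Msh6 and Topbp1 lead, and the red Nae1T-KO triangles that sit clearly below the blue Nae1WT circles occur at high levels (Chek1, 243 against 339) and at low ones (Brca2, 38.3 against 57.8).

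The 33 genes also differed among libraries of the same group. Nae1T-KO replicate 3 was the lowest of its group for 21 of the 33 genes, against 37.2% of all tested genes, and Nae1WT replicate 1 the highest of its group for 19. Relative to each gene's mean over 6 libraries, the median deviation over the 33 genes was -0.03, -0.07 and -0.14 (log2) in Nae1T-KO replicates 1, 2 and 3. It was 0.15, 0.03 and 0.06 in Nae1WT replicates 1, 2 and 3. Fanci, Xrcc2 and Atm had the widest spread within Nae1T-KO, with a coefficient of variation of 16.9%, 15.7% and 15.6%. The median over the 33 genes was 9.12% in Nae1T-KO and 6.12% in Nae1WT.

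**Figure D4:**
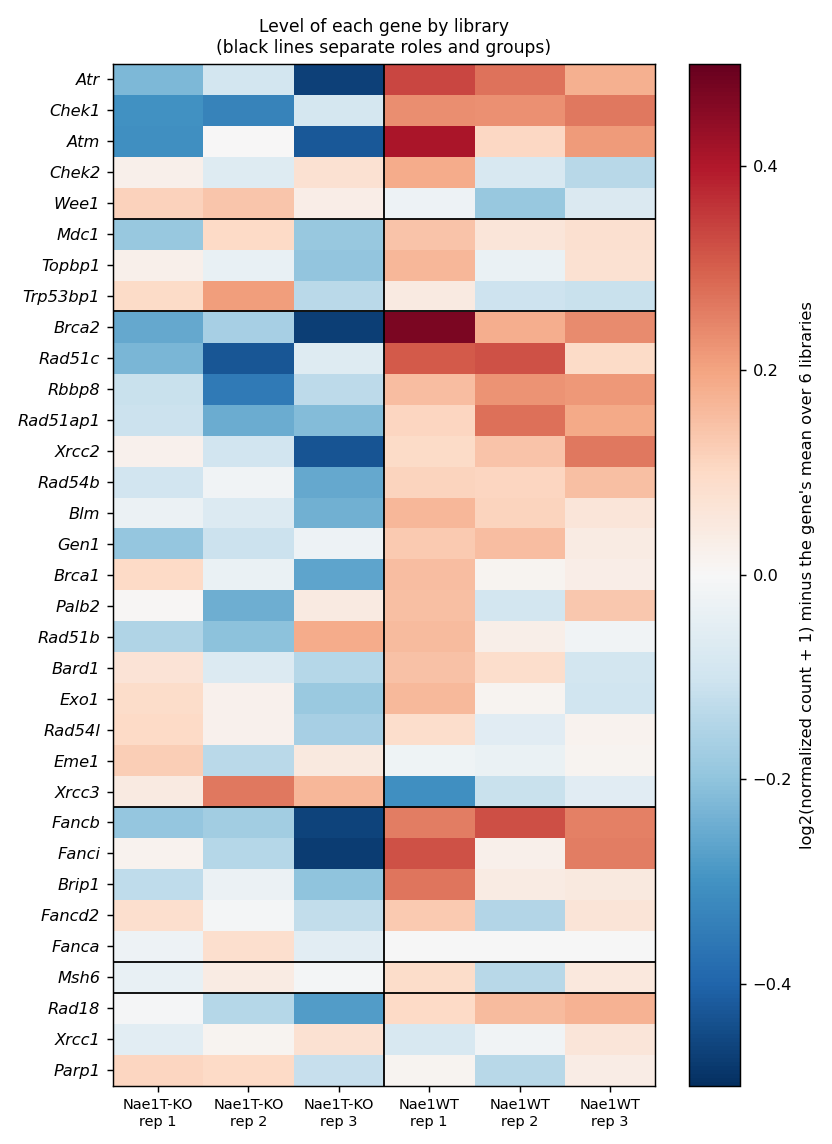
Log2(normalized count + 1) of each gene in each library minus that gene's mean over the 6 libraries (colour, red above and blue below the mean), in rows by role. Nae1T-KO replicate 3 holds the darkest blue cells (Brca2, Atr, Fanci, Fancb), and the rows of Chek1 and Rad51c are among those that do not follow it.

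Since sexes were uneven between the groups, differences were also taken between libraries of the same sex. For the 8 lower genes these differences ran from -0.58 to -0.25 between female libraries and from -0.80 to -0.32 between male ones. Their sign was fixed beforehand, since the groups of these genes did not overlap over the 6 libraries, and only their size is given by this comparison. Over the 33 genes 18 were below 0 in both sexes (54.5%, against 35.1% of all tested genes) and 3 above 0 in both. For 15 of these 18 the sign was fixed in the same way. The median was -0.12 between female and -0.27 between male libraries, against 0.00 in each over all tested genes. Atr was at -0.34 and -0.77 and Brca2 at -0.45 and -0.80 in female and male libraries, whereas Chek1 was at -0.58 and -0.32. Whether the sexes differed cannot be decided from these libraries. Nae1T-KO replicate 3 was the only male library of its group, and Nae1WT replicate 3 the only female library of its group. With sex in the fit 10 of the 33 genes were lower, the 8 above with Xrcc2 and Fanci, against 5.56% of all tested genes.

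**Figure D5:**
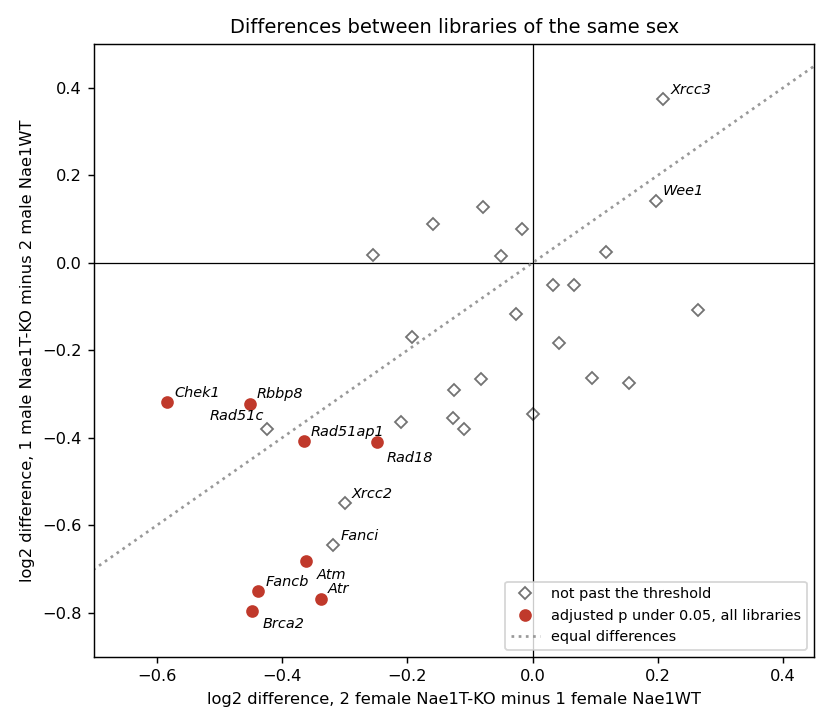
Log2 difference of each of the 33 genes between 2 female Nae1T-KO libraries and 1 female Nae1WT library (x axis) and between 1 male Nae1T-KO library and 2 male Nae1WT libraries (y axis), with a dotted line for equal differences. The 8 genes in red had to lie below 0 on both axes, since their groups did not overlap, and range from -0.58 to -0.25 on the x axis and from -0.80 to -0.32 on the y axis.

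A further 116 genes of the same pathways stood on lists drawn up with earlier results of these data known. Of 115 in the table and tested, 14 were lower, 4 higher and 97 not past the threshold (6.18% and 6.53% over all tested genes), with a median log2 fold change of -0.13. In mismatch repair, where Msh6 had 0.00, Pms1 and Mlh3 were lower. Pms1 had 491, 589.6 and 591 normalized counts in Nae1T-KO and 744, 845 and 796 in Nae1WT. Its log2 fold change was -0.52 (limma, adjusted p = 0.00822). Mlh3 had a log2 fold change of -0.39.

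Among 13 end joining genes, the pathway that rejoins ends without a template, 3 were lower and 0 higher (6.18% and 6.53% over all tested genes). They were Xrcc5, which encodes the end-binding subunit KU80, at -0.41 (limma, adjusted p = 0.00415), the nuclease gene Dclre1c at -0.31 and Rif1, which acts with the product of Trp53bp1, at -0.25. Other checkpoint genes went both ways, with 2 of 19 lower and 3 higher, beside the same shares over all tested genes. Rnf8, a ubiquitin ligase at broken ends, had 0.63, the phosphatase gene Cdc25b 0.51 and Prkdc, the catalytic subunit of DNA-PK, -0.41. Nae1T-KO replicate 2 had 915 normalized counts of Prkdc, close to the 931 of Nae1WT replicate 2.

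Of 18 other Fanconi genes 3 were lower and 1 higher, where 6.18% of all tested genes were lower and 6.53% higher. Fancl, the ubiquitin ligase of the core complex, had a log2 fold change of -0.40 and Cenpx -0.34, whereas Ercc1, a nuclease subunit, had 0.39. Of 31 other recombination genes 2 were lower (6.45%, near the 6.18% of all tested genes) and 0 higher. The 2 were the helicase gene Recql at -0.38 and the deubiquitinase gene Brcc3 at -0.37. Of 28 other genes of strand break and postreplication repair 1 was lower (3.57%, below that share) and 0 higher. The lower gene was Polh, a polymerase that copies past damaged bases, at -0.28. Among the genes named from these lists, Recql, Pms1 and Xrcc5 kept their calls in 18 of 19 alternatives each, and the fewest for any was 8 of 19, for Fancl.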

How the data were processed

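Per the labels' protocols, libraries were made from poly-A selected RNA with random priming. bcl2fastq, HISAT2, DESeq2 1.42.0 and the build mm10 are named per the submitters' processing notes. The sources used here do not give the read counter, its annotation or its use of strand, so reads of overlapping genes may be shared. The deposited signal is a table of normalized counts made by the authors. Each column was a whole multiple of 1 step (100% of values, tolerance 0.001 of a read), and reads were recovered from it. For Nae1T-KO replicate 3 the step was close to 1, so its recovery is less certain.

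Genes with at least 10 normalized counts in at least 3 libraries (13819) were tested on log2(normalized count + 1), a scale that understates changes of low genes, with limma 3.58.1 in R 4.3.3 (trend, robust), for group alone, two-sided. All 33 genes passed this filter. Benjamini-Hochberg adjusted p under 0.05 over all tested genes was called. edgeR 4.0.16, DESeq2 and limma-voom ran on the recovered reads as alternatives. Fits for group alone with limma, edgeR, DESeq2 and limma-voom were run on simulated counts with known changes. Fits with sex, a replicate block or a left-out library were not. Exon lengths and gene coordinates are from GENCODE M21 (GRCm38, the sequence of mm10).

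The 33 genes and all lists were chosen with earlier results of these data known. All 33 are named, with up to 3 called genes of each other list, those with the largest change. Some results of these lists are not reported here. No label says that a replicate number pairs libraries. Same-numbered libraries had deviations from their group means that correlated at -0.13, -0.18 and -0.27. Each such pair joined a female and a male library, so these values cannot decide whether the numbers pair libraries.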

Additional observations from a re-analysis of the deposited data

How the results depend on the processing

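There were 19 alternatives for scaling, filter, pseudocount, test, replicate block, sex and left-out libraries. In all but 1 the count of lower genes among the 33 ran from 6 to 10. The share of all genes called lower ran from 2.73% to 7.92% in these. None of the 33 genes was higher in any alternative, where 157 to 1176 of all genes were. The exception was the replicate block by library number on 4 libraries, with 1 lower gene (Atr) and 253 calls over all genes. In that fit 0.69% of all genes were called lower, and so few libraries leave little basis for the spread. The replicate block by title number gave 7 lower genes and 968 calls over all genes, against 1757 without it. Leaving out 1 library gave 844 to 1790 calls over all genes (1034 without Nae1T-KO replicate 2, 844 without Nae1WT replicate 2, 954 without Nae1WT replicate 3) and 6 to 8 lower genes. Genes near 0 changed sign without passing the test. Without 1 library the log2 fold change ran from -0.0411 to 0.121 for Chek2, -0.0270 to 0.102 for Eme1, -0.113 to 0.0302 for Exo1, -0.0375 to 0.0313 for Fanca, -0.114 to 0.0248 for Fancd2, -0.0729 to 0.0423 for Msh6, -0.0895 to 0.0443 for Rad54l and -0.00764 to 0.0620 for Xrcc1. With the replicate block on 4 libraries it was -0.0377 for Fanca, 0.0211 for Fancd2, 0.0213 for Msh6, 0.00315 for Palb2, 0.0109 for Rad51b and -0.00789 for Xrcc1. With total-count scaling it was 0.0140 for Fancd2, 0.0447 for Msh6 and 0.0159 for Rad54l. It was -0.00950 for Fanca with sex as a covariate, and 0.00237 and 0.00086 for Msh6 with upper-quartile scaling and limma-voom. The cause of these changes was not tested. Reads per library were at least 52 for each of the 33 genes, with the fewest for Xrcc3 and Rad51c, whose intervals were the widest.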
